A study of Mus musculus with 4 samples.

Results

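Conventional T cells of the young salivary gland were described from droplet single-cell 3′ libraries of CD45+ cells, that is, leukocytes. The cells were chosen by their UMIs (unique molecular identifiers, each standing for 1 captured RNA molecule). A member had to hold at least 2 UMIs of Cd3e, Cd3d and Cd3g together, at least 1 UMI of Cd4 or Cd8b1, no UMI of Gzmc, Trdc or Il23r, and at most 5 UMIs of C1qa, C1qb and C1qc together. Barcodes entered when they reached 500 UMIs and 300 genes and when mitochondrial UMIs made up no more than 10%. The rule found 683 members among 37644 cells, or 1.81%. Of these, 298 held Cd4 and no Cd8b1 (CD4 cells), 367 held Cd8b1 and no Cd4 (CD8 cells) and 18 held both. All mice were 20 days old, of the strain that the labels spell C56BL/6. The control group carried 1 functional allele of Csf2 (Csf2+/-) and the other group none (Csf2-/-), so the controls are heterozygous and no wild-type sample was compared. Leukocytes were enriched on CD45 beads and then sorted as CD45+. Each genotype had 1 female and 1 male library, and each library was pooled from 2 mice, so n = 2 libraries per genotype.

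Conventional T cells carry an alpha-beta T cell receptor with the CD3 chains. CD4 cells recognise peptides on MHC class II and act mainly through cytokines and CD40 ligand, and CD8 cells recognise peptides on MHC class I and can kill through granzymes, perforin and Fas ligand. Naive T cells recirculate through lymph nodes with the chemokine receptor Ccr7 and are held quiescent by factors such as Bach2 and Foxp1, whereas memory and effector cells enter and stay in tissues. Csf2 encodes GM-CSF, a cytokine that acts on myeloid cells, and activated T cells are among the cells able to make it. The comparison asks how these T cells differ when GM-CSF is missing.

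The libraries held 111981802 to 122366588 UMIs and the sums over members 1719087 UMIs or more. Where 4 values stand in a row, the heterozygous female library comes first, then the heterozygous male, the Csf2-/- female and the Csf2-/- male. There were 126, 170, 213 and 174 members, with 53, 74, 74 and 97 CD4 cells and 65, 95, 132 and 75 CD8 cells. The median UMIs per member were 11387, 11081.5, 9099 and 10417.5, so the Csf2-/- members were read less deeply. Any pair of libraries shared between 20 and 38 barcodes. The p-values measure the spread between these pooled libraries. In sums over cells, fewer cells of a type and less RNA per cell cannot be told apart.

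The label was checked with receptor genes that the rule did not use. Trac, the constant part of the alpha chain, was found in 91.2% to 95.2% of members of a library, against 35.8% to 40.6% of Gzmc-positive CD3 cells and 22.1% to 25.3% of CD3 cells with Trdc or Il23r. The Gzmc-positive set had no limit on Trdc or Il23r, whereas members had to lack both, so part of this contrast follows from the choice. Of all members, 1 lacked Trac, Trbc1 and Trbc2 together. The beta chain genes separate the sets little. Trbc1 or Trbc2 was found in 99.2% to 100% of members of a library. The ranges were 95.5% to 98.0% in Gzmc-positive cells and 95.8% to 96.8% in cells with Trdc or Il23r. The selection also let in cells with genes of other lineages. Clustering put 182 members, 26.6%, into 4 clusters led by such genes, and the shares per library were 25.4%, 22.9%, 28.6% and 28.7%. These clusters are described below, and the genotype comparisons of gene levels are given with and without them. Shares of cells are given with them. Scrublet predicted 65 members as doublets (14, 21, 8 and 22 per library). Predicted doublets made up 43.0% of other-lineage cluster 2 and 61.1% of other-lineage cluster 8, and at most 3.39% of any other cluster.

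Cells near the limits of the rule were counted. Of the CD4 cells, 107 held 1 UMI of Cd4, and of the CD8 cells 25 held 1 UMI of Cd8b1. Of all members, 5 held exactly 2 CD3 UMIs, and 10 cells that met the other limits held 1. Another 17 cells were left out for 1 UMI of Gzmc, 31 for 1 UMI of Trdc and 38 for 6 to 10 UMIs of C1q genes. The median CD4 cell held 2 UMIs of Cd4 in each library, whereas the median CD8 cell held 7 or 8 of Cd8b1.

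Csf2 itself was rare in these cells. At least 1 UMI was found in 2 of 126, 4 of 170, 0 of 213 and 1 of 174 members. The 0 of 213 allows a share of up to 1.41% as 3 counts of the total, or 1.72% as the upper end of the exact binomial 95% interval. In macrophage-gated cells (at least 20 C1q UMIs and no CD3 UMI), used as a measure of free RNA, the shares were 0.512%, 0.674%, 0.12% and 0.17%. The shares in Csf2+/- members were 1.59% and 2.35%, with exact binomial 95% intervals of 0.193% to 5.62% and 0.645% to 5.92%, which cover counting error only. Csf2 was at 2.68, 5.61 and 1.64 CPM in other-lineage clusters 2, 6 and 8 (CPM, a gene's UMIs scaled to the total UMIs of the same sum). In clusters 0 and 1 Csf2 was at 0.77 and 2.34 CPM, and the remaining clusters held no Csf2 UMI. The shares of members with Csf2 therefore include cells of the other-lineage clusters. Of the UMIs of Csf2rb, a GM-CSF receptor chain, in members 97.6% lay in the 4 other-lineage clusters, and of the Csf2ra UMIs 94.1%.

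The members fell into 12 clusters, whose leading genes chose them and are given as a description. The plot of levels by cluster shows them. Cluster 0 (129 cells, 125 of them CD8) was memory or effector CD8 T-like, led by Itga1, Cdh1, Klrc1, Pdcd1 and Gzmk, with 782 CPM of Cd8b1 (CPM, a gene's UMIs scaled to the total UMIs of the same sum). Cluster 1 (106 cells, 102 of them CD4) was memory or effector CD4 T-like, led by the chemokines Ccl20 and Ccl1 with Maf, Cd40lg and Tnfsf11. Cluster 3 (68 cells, 63 of them CD8) was naive CD8 T-like, with 609 CPM of Ccr7 and 1255 CPM of Lef1. Cluster 5 (44 cells, 41 of them CD8) was effector CD8 T-like and was led by Gzma, S1pr5, Ccl5 and Klrg1, with 8138 CPM of Gzma and 862 CPM of Gzmb. Cluster 10 (23 cells, 22 of them CD4) was regulatory T-like, with 241 CPM of Foxp3, the transcription factor of regulatory T cells. It also held 455 CPM of Il1rl1 (the IL-33 receptor), 364 CPM of Areg (the growth factor amphiregulin) and 417 CPM of Klrg1. Cluster 4 (59 cells) was led by histone genes and Top2a, and cluster 9 (33 cells) by Mcm genes and E2f1, and both held CD4 and CD8 cells.

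Cluster 7 (39 cells, 34 of them CD4) held naive genes at the level of cluster 3, with 653 CPM of Ccr7 and 1333 CPM of Lef1, but collagen genes of a few cells led it, so it was left unnamed. The other-lineage clusters were left unnamed too. Cluster 2 (93 cells) was led by Cd209a, Il1b and MHC class II genes of dendritic and myeloid cells, and its cells held a median of 23550 UMIs. Cluster 6 (40 cells) was led by Ly49 and NK cell genes such as Klra4 and Ncr1, with 146 CPM of Zbtb16, the transcription factor of innate-like T cells. Cluster 8 (36 cells) was led by immunoglobulin genes, though most of the Igkc UMIs lay in a single cell. It also held markers of group 2 innate lymphoid cells (ILC2), with 1155 CPM of Areg, 535 of Gata3, 298 of Il1rl1 and 164 of Hs3st1. The ILC2 marker Ptgdr2 had no UMI. Cluster 11 (13 cells) was led by secreted salivary proteins. Of the 13 cells of cluster 11, 12 came from the Csf2-/- female library.

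**Figure D1:**
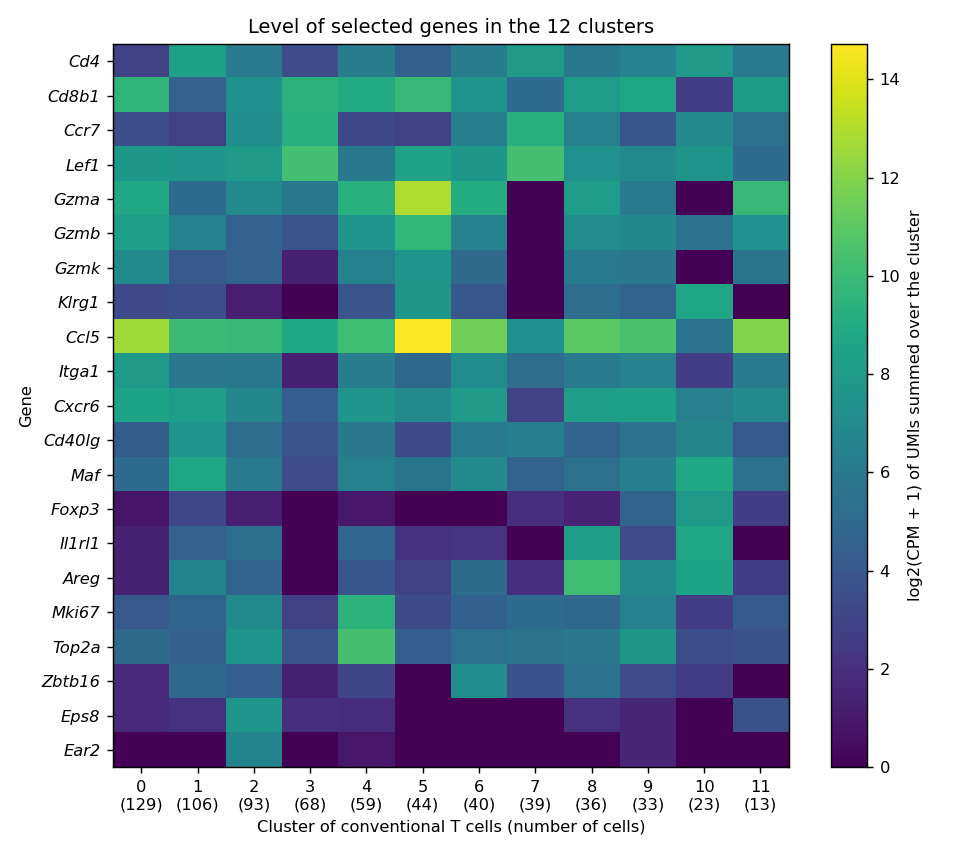
Colour gives log2(CPM + 1) of each gene (rows) in the UMIs summed over each of the 12 clusters (columns, with cell numbers). Ccr7 and Lef1 are brightest in clusters 3 and 7, Gzma in cluster 5, Foxp3 in cluster 10, Top2a in cluster 4, and Ear2 and Eps8 in cluster 2.

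CD4 and CD8 cells of the same libraries were compared on UMIs summed per library, with the library as a block. Of 7644 genes, 242 were higher in CD4 cells (3.17%) and 143 in CD8 cells (1.87%) by edgeR's quasi-likelihood test at an adjusted p under 0.05. The DESeq2 test called 180 in all and edgeR 385. The genes of the rule itself were left out of the test. The gene Cd8a, which pairs with Cd8b1, was at 399 ± 73.5 CPM in CD8 cells and 2.98 ± 2.93 CPM in CD4 cells (SD, n = 4 libraries), a check of the split.

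Genes higher in CD4 cells included several with roles in T cell help. Cd40lg, which licenses B cells and dendritic cells, was at 114 ± 13.4 CPM in CD4 cells and 9.97 ± 6.15 CPM in CD8 cells, a log2 difference of 3.58 ± 0.30 (SE, edgeR adjusted p = 0.00029). Zbtb7b, the factor that fixes the CD4 lineage, was higher by 1.63 ± 0.25 on the log2 scale. Maf, a regulator of helper cytokines, was higher by 2.93 ± 0.23, with 197 ± 29.1 CPM against 26.4 ± 17.4 CPM. Ctla4, an inhibitory receptor, was at 229 ± 41.0 CPM against 69.3 ± 13.8 CPM, and Izumo1r, the folate receptor 4 of regulatory and anergic CD4 cells, at 46.2 ± 8.53 CPM against 8.01 ± 3.20 CPM. Tnfsf11, which encodes RANK ligand, was at 152 ± 56.8 CPM in CD4 and 39.6 ± 2.59 CPM in CD8 cells. The interferon-induced GTPase Iigp1 had the largest difference, 5.25 ± 0.58, at 20.7 CPM in CD4 and 0.439 CPM in CD8 cells. Each of these genes was higher in CD4 cells in 4 of 4 libraries, which the rule for naming the 12 largest required. Kif13a, Podnl1, Trib2, Tmem64 and the integrin chain Itgb3 completed the 12 largest, with log2 differences of 1.61 to 2.48.

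Genes higher in CD8 cells included granule genes and the integrin chains Itgae and Itga1. Ccl5, a chemokine of effector cells, was at 4288 ± 2222 CPM in CD8 and 759 ± 280 CPM in CD4 cells, a log2 difference of -2.48 ± 0.14 (edgeR adjusted p = 0.000426), and its adjusted p was 0.0821 without the other-lineage clusters. Gzmb, the protease granzyme B, was at 219 ± 109 CPM against 39.8 ± 16.2 CPM, and its log2 difference was -2.47 ± 0.16. Gzmk differed by -2.34 ± 0.29 and Nkg7, a granule membrane protein, by -1.67 ± 0.14. Itgae, the CD103 chain that binds E-cadherin on epithelium, was at 62.3 ± 13.5 CPM against 7.23 ± 7.55 CPM. Its log2 difference was -3.32 ± 0.47 (edgeR adjusted p = 0.00802), a call lost when the Csf2+/- female library was left out (0.0753). Itga1, a collagen receptor of resident T cells, differed by -1.23 ± 0.17 and Runx3, the factor of the CD8 lineage, by -0.75 ± 0.11. The inhibitory NK receptor chain Klrc1 (-2.90 ± 0.24), Cd160 (-2.47 ± 0.31) and Crtam (-2.43 ± 0.37) were higher in CD8 cells as well. Wdr95, Lcn4, Dapk2, Bend4 and Samd3 had log2 differences of -3.25 to -2.55. The plot of CD4 against CD8 differences shows these genes.

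**Figure D2:**
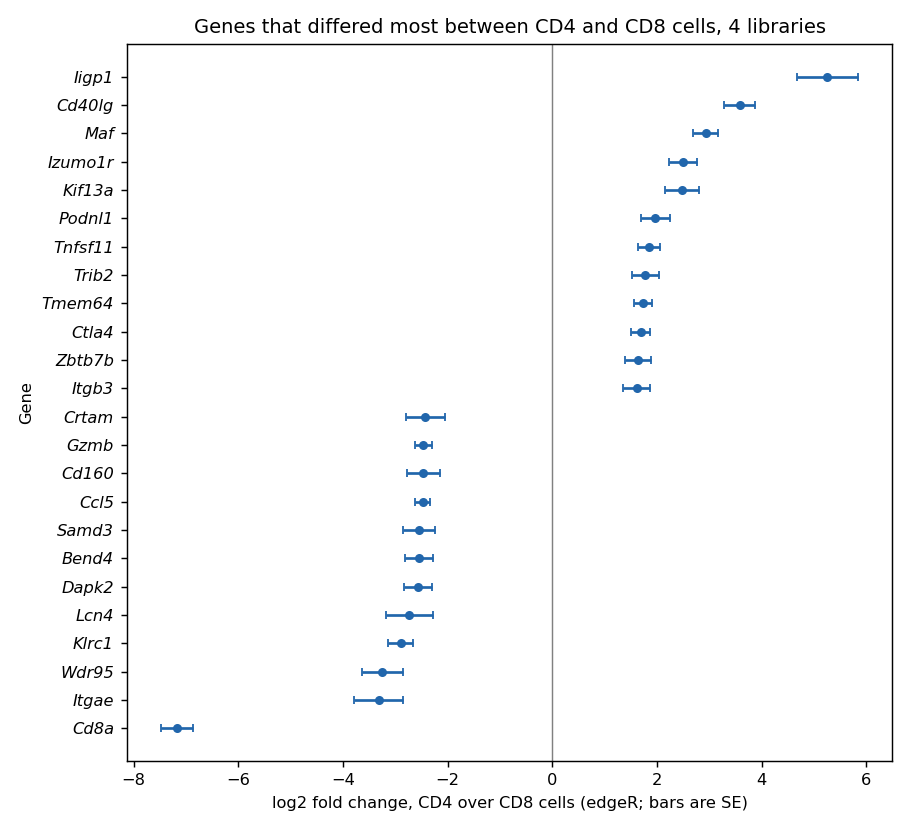
Points are log2 fold changes of CD4 over CD8 cells with SE bars for the 12 largest differences in each direction, from 4 libraries. Iigp1, Cd40lg and Maf lie farthest to the right, and Cd8a, at -7.17, farthest to the left.

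Gene groups were counted as well. Of 13 measured CD8 lineage genes 11 were higher in CD8 cells and none in CD4 cells, with a median log2 difference of -1.60 against -0.01 over all genes tested. Of 13 granule genes 6 were higher in CD8 and 1 in CD4 cells (median -1.67). Of 11 CD4 lineage genes 5 were higher in CD4 and 1 in CD8 cells (median 1.63), and of 14 regulatory T cell genes 5 were higher in CD4 cells and none in CD8 cells (median 0.83). Of 20 activation and memory genes 9 were higher in CD4 cells, among them Cd44 (491 ± 91.0 CPM against 290 ± 43.5 CPM) and Icos (538 ± 52.7 CPM against 282 ± 43.7 CPM), and 1, Ly6c2, in CD8 cells. The survival gene Bcl2 was at 637 ± 98.8 CPM in CD8 and 323 ± 25.2 CPM in CD4 cells. The naive genes Ccr7 (log2 difference 0.16 ± 0.19) and Lef1 (-0.13 ± 0.21) did not pass the test. Of 9 MHC class II and dendritic genes 4 were higher in CD4 cells, and none was without the other-lineage clusters. Of the UMIs of T cell receptor variable segments, at least 1 Trbv UMI was found in 195 members (28.6%) and at least 1 Trav UMI in 153 (22.4%), spread over 21 Trbv and 46 Trav segments. Trbv12-2 was found in the most cells, 36, of which 26 were CD8 and 9 CD4, and in 7 to 12 cells of each library.

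The promoter of Gzmb is printed because Gzmb differed both between CD4 and CD8 cells and, in CD8 cells, between the genotypes described below. Shown are the 250 bases before its start in RefSeq on GRCm38.p6, chr14:56262335-56262584, minus strand. The data were aligned to GRCm39, so the place is of another build. Capitals mark the RUNX core, TGTGGT or its reverse complement ACCACA, and the AP-1 site, TGACTCA or its reverse complement TGAGTCA.
Gzmb: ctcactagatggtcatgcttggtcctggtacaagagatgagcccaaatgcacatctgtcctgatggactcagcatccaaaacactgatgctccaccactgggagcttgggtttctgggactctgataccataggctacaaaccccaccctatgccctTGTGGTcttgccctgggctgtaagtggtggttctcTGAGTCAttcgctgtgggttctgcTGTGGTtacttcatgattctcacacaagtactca
The RUNX core occurred 2 times, 93 and 34 bases before the start, and the AP-1 site 1 time, 58 bases before it. Among 32851 promoters of this length, 14.1% held the RUNX core and 4.46% the AP-1 site on either strand. These are matches of letters in the reference and not measured binding.

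Conventional T cells were compared with 2 other sets of CD3 cells in the same libraries, while 3635 further CD3 cells without Cd4 or Cd8b1 were not compared. Against 1639 Gzmc-positive CD3 cells, 1592 of 9971 genes were higher in conventional T cells (16.0%) and 1501 lower (15.1%). Trac was at 393 ± 23.2 CPM against 97.0 ± 8.93 CPM, a log2 difference of 2.03 ± 0.07 (edgeR adjusted p = 4.71e-12). The Gzmc-positive set could hold cells with Trdc, which members could not. Cd5 and Cd6, receptors that tune T cell receptor signals, were higher by 4.10 ± 0.14 and 3.30 ± 0.09. The costimulatory receptor Cd28 was at 381 ± 18.2 CPM against 80.8 ± 7.41 CPM. Slamf1 (5.13 ± 0.19), Slamf6 (4.40 ± 0.19) and Gzmk (4.60 ± 0.19) were among the 8 largest, with Gm8369, Fam169b, 1500009L16Rik, Dapl1 and Igfbp4. The Ly49 receptor genes Klra5, Klra3, Klra1, Klra8 and Klra9 were lower in conventional T cells, with log2 differences of -6.98 to -4.06, and so were Tnni1, Styk1 and Chl1. Of these genes, Dapl1 lost its call without the Csf2+/- female or the Csf2-/- female library (adjusted p = 0.103 and 0.0885), and Klra1 with any library left out (0.0596 to 0.0687). Gzmb was lower too, 136 ± 72.4 CPM against 729 ± 91.2 CPM, a call lost when the Csf2+/- female (adjusted p = 0.055) or the Csf2-/- male library (0.0568) was left out. Of 18 naive genes 14 were higher in conventional T cells and 1 lower (median 1.78 against 0.00 over all genes), and of 17 innate-like T cell genes none was higher and 16 lower (median -2.51).

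Against 3583 CD3 cells with Trdc or Il23r, 1424 of 11089 genes were higher in conventional T cells (12.8%) and 1432 lower (12.9%). Il17a was at 0.605 ± 0.501 CPM in conventional T cells and 233 ± 113 CPM in the Trdc or Il23r cells, a log2 difference of -8.69 ± 0.18 (edgeR adjusted p = 9.17e-09). All 15 measured type 17 genes were lower in conventional T cells, with a median log2 difference of -3.43. The other set was chosen by Trdc or Il23r and members had to lack both. The type 17 difference is therefore partly set by the choice of cells. Il22 and Fstl4 had no UMI in members. With 3 counts over the members as the floor, they were at least 73.2-fold and 165-fold higher in the Trdc or Il23r cells. Il1r1, Scart1, Ablim3, Cdh10 and Mtcl1 were lower in members, with log2 differences of -8.55 to -6.85. Izumo1r (4.61 ± 0.27), Cd6 (3.96 ± 0.15), Tnfrsf4 (3.88 ± 0.29), which encodes the costimulatory receptor OX40, and Slfn1 (3.88 ± 0.19) were higher in members, with Gm8369, Fam169b, Cd8a and Dapl1. Cd8a pairs with Cd8b1, by which many members were chosen, so its difference follows in part from the rule. The call for Dapl1 was lost without the Csf2+/- female (adjusted p = 0.0545) or the Csf2-/- female library (0.122). Of 31 interferon response genes 23 were higher in members and none lower (median 0.63 against 0.00 over all genes). The same list gave 19 higher and none lower of 30 against the Gzmc-positive cells (median 0.61), and the members are the shared side of both comparisons.

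The share of conventional T cells among all cells was 1.32%, 1.94%, 2.18% and 1.82%. Its mean was 1.63 ± 0.44% in Csf2+/- and 2.00 ± 0.26% in Csf2-/- libraries (SD, n = 2), and the groups overlapped (two-sided exact permutation test, p = 0.6667). With 2 libraries against 2 the smallest p this test can give is 0.3333. The CD4 share of CD4 plus CD8 cells was 44.9%, 43.8%, 35.9% and 56.4%. It was lowest in the Csf2-/- female and highest in the Csf2-/- male library, with group means of 44.4 ± 0.80% and 46.2 ± 14.5%. Foxp3 was found in 8 of 53, 7 of 74, 7 of 74 and 5 of 97 CD4 cells, or 15.1%, 9.46%, 9.46% and 5.16%, and the groups touched at 9.46%. In CD8 cells no UMI of Foxp3 was found, which allows shares of up to 2.27% to 4.62% per library as 3 counts of the total (2.76% to 5.52% by the exact binomial 95% interval), and in macrophage-gated cells the shares were 0.202% to 0.512%.

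The shares of cells with Ccr7, which guides T cells to lymph nodes, were lower in both Csf2-/- libraries. Ccr7 was found in 41.5% and 31.1% of Csf2+/- CD4 cells and in 14.9% and 20.6% of Csf2-/- CD4 cells. In CD8 cells it was found in 44.6% and 31.6% against 18.2% and 18.7%. The genotypes did not overlap in either subset. These shares were not tested, and with 2 libraries against 2 no share could reach a p below 0.3333 in the exact permutation test. The shares of macrophage-gated cells with Ccr7 were 2.12%, 1.82%, 1.08% and 1.93%, at median depths of 10923 to 12153 UMIs. When each member was thinned to 2000 UMIs, Ccr7 was found in 16.98%, 18.9%, 6.76% and 9.28% of CD4 cells and in 29.2%, 18.9%, 12.1% and 4.11% of CD8 cells, with 2 CD8 cells of the Csf2-/- male library too shallow to enter. The groups did not overlap at that depth either. These shares include the other-lineage clusters, of which cluster 2 held 158 CPM of Ccr7, against 10.8 and 5.85 CPM in clusters 0 and 1. Their part in the shares was not tested. By level without those clusters, Ccr7 was at 180, 193, 92.4 and 69.0 CPM in CD4 cells (edgeR adjusted p = 0.043). In CD8 cells it was then at 263, 142, 88.9 and 52.8 CPM (edgeR adjusted p = 0.677). By shares of cells read without thinning, the naive genes Lef1 and S1pr1 did not follow in every case. Lef1 was found in 67.9%, 68.9%, 68.9% and 61.9% of CD4 cells and in 67.7%, 69.5%, 71.2% and 66.7% of CD8 cells, and S1pr1, the receptor for exit from tissue, in 66.0%, 67.6%, 64.9% and 67.0% of CD4 cells, with overlapping genotypes each time. In CD8 cells S1pr1 was found in 56.9%, 55.8%, 43.2% and 49.3%, without overlap. By level without the other-lineage clusters, Lef1 was lower in both Csf2-/- libraries in each subset. It was at 344, 523, 303 and 297 CPM in CD4 cells and 526, 410, 375 and 274 CPM in CD8 cells. Neither change was called (edgeR adjusted p = 0.57 and 0.389).

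**Figure D3:**
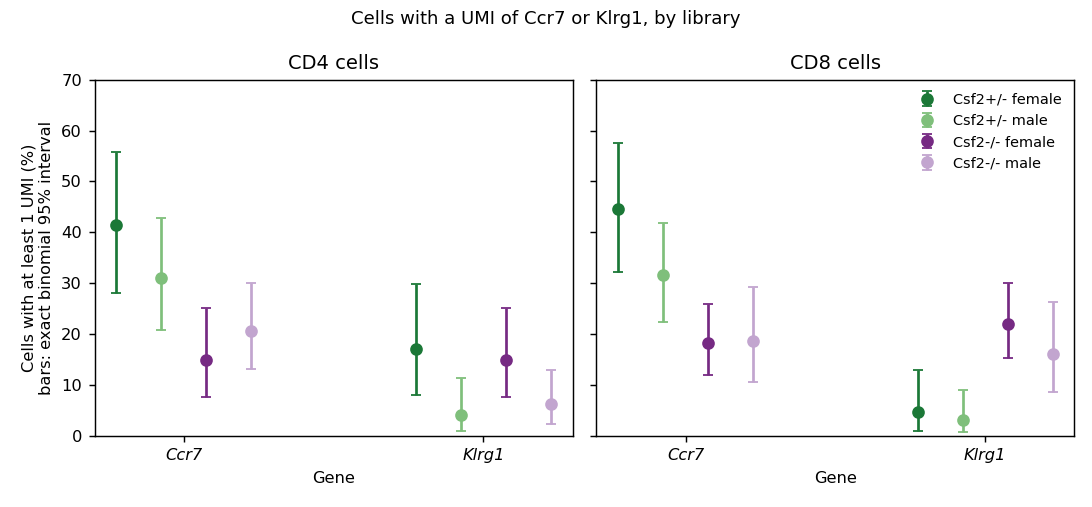
Points are the percent of CD4 cells (left) and CD8 cells (right) with at least 1 UMI of Ccr7 or Klrg1 in each of the 4 libraries, and bars are exact binomial 95% intervals. For Ccr7 both Csf2-/- points lie below both Csf2+/- points in each subset, and for Klrg1 they lie above them in CD8 cells while the genotypes overlap in CD4 cells.

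Division genes were read with and without thinning. Mki67 or Top2a was found in 35.1 ± 0.26% of Csf2+/- and 40.8 ± 0.03% of Csf2-/- members (SD, n = 2). When all cells were thinned to 2000 UMIs and the members chosen again, 83, 90, 133 and 87 cells met the rule, the means were 17.3 ± 2.28% and 16.5 ± 2.19%, and the groups overlapped. Both depth and membership differ between these values. In the members as first chosen, Mki67 alone was found in 20.6%, 23.5%, 24.4% and 28.2%, and after thinning in 10.3%, 9.41%, 9.86% and 15.7%, where the groups overlapped.

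Gene levels of all members were then compared between the genotypes. Of 9698 genes, 1 was higher in Csf2-/- libraries (0.0103%) and 9 were lower (0.0928%) by edgeR's quasi-likelihood test. Most of these genes lay in cells with genes of other lineages, as the plot of where the UMIs lie shows. Ear2, an eosinophil-type ribonuclease made by some macrophages, was at 59.3, 41.6, 3.70 and 4.36 CPM. The Csf2+/- libraries were high and the groups far apart, and 99.1% of the UMIs lay in the other-lineage clusters. Retnla, a secreted product of alternatively activated macrophages, was at 75.0, 58.2, 10.7 and 3.92 CPM, with 84.4% of its UMIs in those clusters and an adjusted p of 0.0662 without the Csf2+/- female library. For Eps8 (log2 change -1.66 ± 0.18), Flrt3 (-3.73 ± 0.53) and the metal-binding protein Mt1 (-0.85 ± 0.12) the shares were 97.5%, 97.3% and 88.4%. Thsd4, the gene that rose, was found in 10 cells, and 96.3% of its UMIs lay in those clusters. Fgf13 (-1.32 ± 0.17), with 44.2% there, was detected in 177 cells.

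The remaining 3 genes were spread over the T cells. Bach2, a repressor that keeps T cells naive or stem-like, was at 468, 449, 258 and 289 CPM, so that both Csf2-/- libraries were below both Csf2+/- libraries. Its log2 change was -0.79 ± 0.12 (edgeR adjusted p = 0.0292, or 0.0526 once the Csf2-/- female library was left out). It was found in 513 of the 683 members. Clusters 3 and 7, with the naive genes, held 958 and 1481 CPM of Bach2 and together 25.4%, 19.4%, 11.3% and 10.3% of the members of the 4 libraries. The clusters were made with these genes, so the shares are a description, and their part in the change of Bach2 and of the naive genes below was not tested. Aff3, a transcription elongation factor of lymphocytes, fell from 286 and 255 CPM to 140 and 156 CPM, a log2 change of -0.91 ± 0.13 (edgeR adjusted p = 0.0253). The mitochondrial gene mt-Nd3 fell by 0.85 ± 0.12 on the log2 scale, and the median mitochondrial share of UMIs was 2.39% and 2.62% in Csf2+/- and 1.88% and 1.90% in Csf2-/- members. Of the UMIs of Bach2, Aff3 and mt-Nd3, 38.1%, 39.8% and 38.25% lay in the other-lineage clusters. Those clusters held a larger part of all member UMIs than their 26.6% of the cells, as the 93 cells of cluster 2 held a median of 23550 UMIs. These percents, and that of Fgf13, are therefore not read as enrichment. Without those clusters no gene passed (edgeR, 564 genes at an unadjusted p under 0.05). Bach2 then had an adjusted p of 0.0802 and a log2 change of -0.89 ± 0.13. Ear2, Eps8, Flrt3 and Thsd4 were then too low to be tested. The summed level of the macrophage markers in members was 686, 801, 534 and 838 CPM, that of dendritic and MHC class II genes 6427, 5317, 4387 and 7091 CPM, and that of salivary epithelial markers 1098, 3966, 5290 and 818 CPM. The NK and ILC1 markers, which include Gzma and Gzmb, were at 1101, 1073, 2598 and 1615 CPM, the ILC2 markers, which include Klrg1, at 334, 317, 416 and 613 CPM, and the neutrophil and eosinophil markers, which include Ear2, at 65.2, 48.0, 9.04 and 7.41 CPM. The genotypes did not overlap in these last 3 sums. Ear2, whose levels are given above, made up most of the last of them, so that sum largely repeats its call. The sums of B cell markers (333, 244, 298 and 4130 CPM), gamma-delta T cell markers and red cell markers overlapped. With 2 libraries against 2, no such sum could reach a p below 0.3333 in the exact permutation test. The part of all these sums in the calls of Bach2, Aff3 and mt-Nd3 was not tested.

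**Figure D4:**
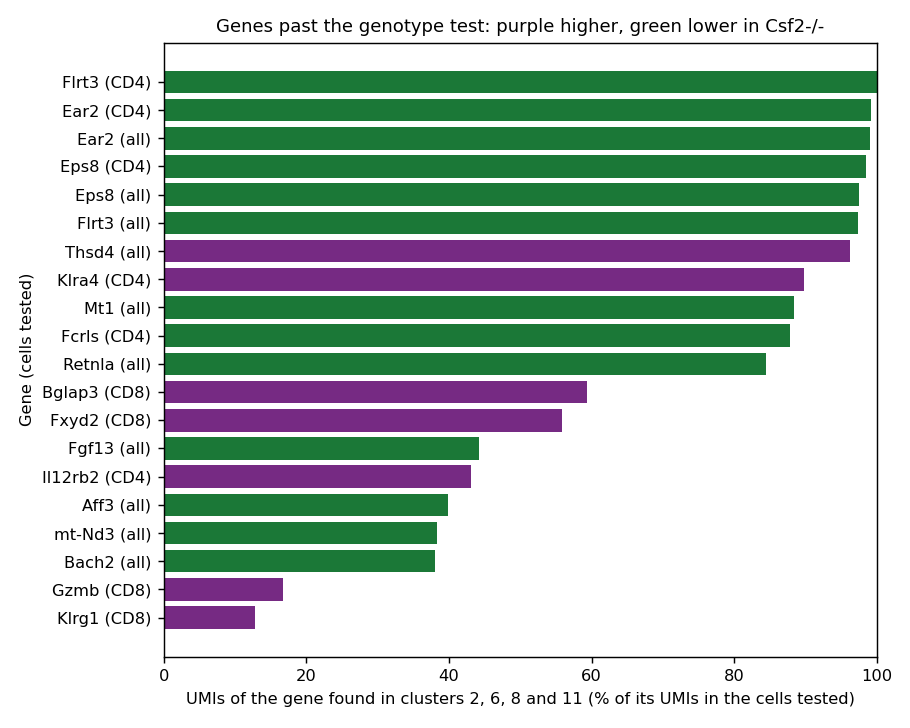
Bars give the percent of each called gene's UMIs that lay in clusters 2, 6, 8 and 11, for genes past the genotype test in all members, CD4 cells or CD8 cells (purple higher, green lower in Csf2-/-). Flrt3, Ear2, Eps8 and Thsd4 lie above 96%, and Gzmb and Klrg1 in CD8 cells at 16.7% and 12.8%.

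In CD4 cells, 2 of 7583 genes were higher in Csf2-/- libraries (0.0264%) and 4 lower (0.0527%). Il12rb2, the inducible chain of the IL-12 receptor that marks type 1 helper cells, was at 39.2, 42.2, 137 and 109 CPM. Both Csf2-/- libraries were high, and the log2 change was 1.57 ± 0.22 (edgeR adjusted p = 0.0492). The call was lost with any 1 library left out (adjusted p = 0.0995 to 0.387), while without the other-lineage clusters the change was 2.06 ± 0.30 (adjusted p = 0.012). Klra4, an NK receptor of the Ly49 family, had no UMI in Csf2+/- CD4 cells and 57.6 and 40.9 CPM in Csf2-/- CD4 cells. It was among the leading genes of other-lineage cluster 6, at 236 CPM. In CD4 cells without the other-lineage clusters it was too low to be tested. Over all CD4 cells it was found in 6 cells, with 43.9% of its UMIs in 1 cell. With 3 counts over the Csf2+/- CD4 cells as the floor, Klra4 was at least 25.7-fold higher in Csf2-/- CD4 cells. This call too was lost with any 1 library left out (adjusted p = 0.0616 to 0.286). The genes that fell were Ear2, Eps8, Flrt3 and Fcrls, an Fc receptor-like gene of macrophages, with 87.8% to 100% of their UMIs in the other-lineage clusters. Flrt3 had no UMI in Csf2-/- CD4 cells and was at least 24.0-fold higher in Csf2+/- CD4 cells, by the same floor. The 4 calls were lost with any 1 library left out, except that Ear2 kept an adjusted p of 0.0396 without the Csf2+/- female library.

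Ifng, the cytokine of type 1 cells, was at 56, 85.5, 163 and 196 CPM in CD4 cells, a log2 change of 1.33 ± 0.21 that missed the threshold (edgeR adjusted p = 0.112). Without the other-lineage clusters its change was 1.15 ± 0.21 (adjusted p = 0.043). The naive genes Ccr7 (202, 178, 95.1 and 103 CPM), Foxp1 (759, 743, 465 and 425 CPM) and Bach2 (478, 561, 304 and 289 CPM) were lower in both Csf2-/- libraries. They missed the threshold (edgeR adjusted p = 0.147 for each). Without the other-lineage clusters 13 genes passed, 2 higher and 11 lower. Ccr7 (-1.27 ± 0.23) and Foxp1 (-0.89 ± 0.17) were then among the lower genes with Klf4, a quiescence factor (-2.09 ± 0.35). Most of the 11 lower genes were mitochondrial, namely mt-Co1, mt-Co2, mt-Co3, mt-Atp6, mt-Cytb, mt-Rnr1 and mt-Rnr2 (-0.79 to -0.46). That exclusion was chosen after the data were seen.

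In CD8 cells, 4 of 8364 genes were higher in Csf2-/- libraries (0.0478%) and none lower (0.0%, with 451 genes of either direction at an unadjusted p under 0.05, and DESeq2 calling 1 lower). Gzmb was at 135, 118, 335 and 287 CPM. Both Csf2-/- libraries stood above both Csf2+/- libraries, with means of 311 ± 33.3 and 126 ± 12.1 CPM (SD, n = 2). The log2 change was 1.26 ± 0.15 (edgeR adjusted p = 0.0331). The adjusted p rose to 0.0523 when the Csf2-/- female library was left out and to 0.124 when the Csf2-/- male was. Klrg1, an inhibitory receptor of terminal effector cells, was at 5.53, 2.72, 42.9 and 29.5 CPM, a log2 change of 3.19 ± 0.45 (edgeR adjusted p = 0.039). It was found in 3 of 65, 3 of 95, 29 of 132 and 12 of 75 CD8 cells, and in 0.717% to 1.70% of macrophage-gated cells. Leaving out the female Csf2-/- library gave an adjusted p of 0.259, and leaving out the male one 0.124. Cluster 5, which Gzma and Klrg1 helped to define and which held 862 CPM of Gzmb, had 1, 6, 26 and 11 cells in the 4 libraries. These numbers are a description, since the clusters were made with the same genes, and whether Gzmb or Klrg1 differed per cell within the cluster was not tested. Fxyd2, a modulator of the sodium pump, and Bglap3 rose as well, but 50% and 45.3% of their UMIs lay in 1 cell each. Fxyd2 lost its call without the Csf2-/- male library (0.124), and Bglap3 without the Csf2-/- female (0.0666) or the Csf2-/- male library (0.312).

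Other killer and naive genes did not pass the test with genotype as the only term. Fasl, the Fas ligand, was at 70.8, 80.3, 150 and 154 CPM (log2 change 0.95 ± 0.16, edgeR adjusted p = 0.0739). Ifng was at 68.6, 44.9, 130 and 119 CPM (1.12 ± 0.22, adjusted p = 0.145). Gzma, granzyme A, was at 264, 167, 1945 and 702 CPM. Its spread within the Csf2-/- group was wide, and the log2 change of 2.58 ± 0.77 had an edgeR adjusted p of 0.924. Gzma was found in 20.0%, 25.3%, 56.8% and 30.7% of CD8 cells, against 7.60%, 7.69%, 7.35% and 10.5% of macrophage-gated cells, which should lack it. Bach2 was at 447, 393, 231 and 271 CPM (-0.80 ± 0.15, adjusted p = 0.133) and Dapl1, a gene of naive CD8 cells, at 86.3, 46.3, 24.0 and 38.3 CPM (-1.15 ± 0.35, adjusted p = 0.716). Leaving out 1 library changed several of these. Without the Csf2+/- male library Fasl, Ifng, Bach2 and Dapl1 had adjusted p-values of 2.35e-05 to 0.0313, without the Csf2+/- female library Fasl (0.0248) and Ifng (0.000365) passed, and without the Csf2-/- male library Gzma passed (0.0101). With 1 library left out the log2 change of Dapl1 ranged from -1.58 to -0.64 and that of Gzma from 1.64 to 3.14.

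Without the other-lineage clusters 22 genes passed in CD8 cells, 9 higher and 13 lower. Gzmb then had an edgeR adjusted p of 1.83e-05 and a log2 change of 1.41 ± 0.16, with 159, 142, 414 and 419 CPM. Klrg1 (3.60 ± 0.55), Slamf7, an activating receptor of killer cells (1.41 ± 0.23), Fasl (1.05 ± 0.19), Gzmk (1.21 ± 0.24), Ifng (0.995 ± 0.214) and the interferon-induced Isg15 (1.28 ± 0.25) were higher. Bach2 (-0.96 ± 0.15), Aff3 (-1.03 ± 0.17) and Dapl1 (-1.39 ± 0.28) were lower. The summed level of 14 NK and ILC1 markers, which include Gzma and Gzmb, was 1149, 931, 3319 and 1653 CPM in CD8 cells, and none of the 14 was at 0 in every library. Its part in these values was not tested.

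**Figure D5:**
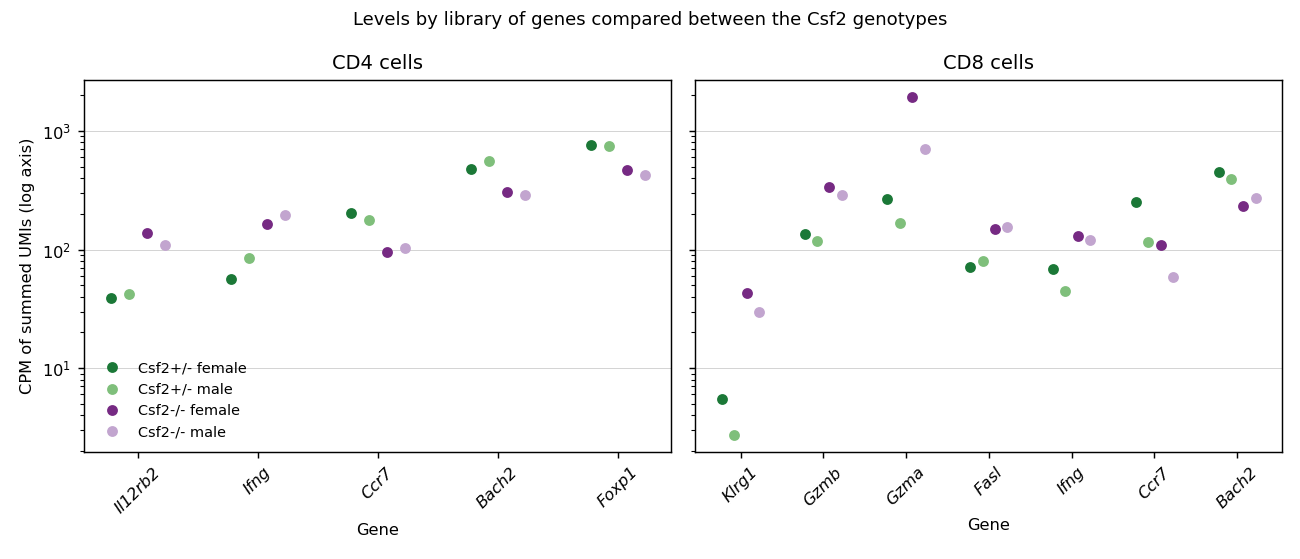
Points are CPM of summed UMIs (log axis) in each library for 5 genes in CD4 cells and 7 genes in CD8 cells. Il12rb2 and Ifng in CD4 cells and Klrg1, Gzmb, Gzma, Fasl and Ifng in CD8 cells are higher in both Csf2-/- libraries, and the naive genes shown are lower in both.

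Over the gene groups, few members passed the test and the medians are given as a description. Of 19 naive and recirculating genes in all members, 1 (Bach2) fell and 16 had a negative change, with a median of -0.61 against 0.00 over all genes tested. In CD4 cells 15 of 17 were negative (median -0.70) and in CD8 cells 15 of 17 (median -0.51). Of 14 granule genes 13 had a positive change in all members (median 0.58). In CD8 cells 12 of 14 did, with 1 called, Gzmb (median 0.57). Of 14 type 1 helper and effector genes 11 were positive in CD4 cells (median 0.46), with 1 called, Il12rb2. Of 31 interferon response genes 26 were positive in all members (median 0.32), with none called. Of 16 regulatory T cell genes 13 were negative in CD4 cells (median -0.36), with none called. Of 13 genes of the mitochondrial genome 12 were negative in all members (median -0.34), with 1 called. Of 24 proliferation genes, 24 had a positive change in CD4 (median 0.59) and 4 in CD8 cells (median -0.14), and none was called. Their summed level in CD8 cells overlapped between the genotypes (4396, 6538, 5677 and 4743 CPM). A difference between the subsets is therefore not shown. Of 18 genes of the CD3 and receptor complex none was called (median 0.09).

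The test of whether the genotype change differed between CD4 and CD8 cells called no gene with a larger change in CD4 cells (0.0%) and 1 gene, Igkc, with a smaller one (0.012%) of 8342, with 393 genes at an unadjusted p under 0.05. It is an immunoglobulin gene, and 94.97% of its UMIs in members lay in 1 CD8 cell. Without the Csf2-/- male library, which holds that cell, its adjusted p was 0.998. Without the other-lineage clusters Klrg1 (interaction -4.07 ± 0.62, adjusted p = 0.00459), Cd74 and Klf2 had a smaller change in CD4 than in CD8 cells. The different calls for Gzmb in CD8 cells and Il12rb2 in CD4 cells are therefore not shown to be differences between the subsets.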

How the data were processed

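Single-cell 3′ libraries of CD45+ salivary gland cells were analysed from 4 samples, 2 per Csf2 genotype. Each deposited matrix gives raw UMI counts by gene and barcode. The submitters' processing notes name Cell Ranger 7.0.0 and GRCm39. The members and gene lists were chosen with earlier results of these data known. UMIs were summed per library and subset and tested with edgeR 4.0.16 in R 4.3.3 (quasi-likelihood, robust, TMM, default low-count filter, Benjamini-Hochberg over all genes tested, threshold 0.05). Genotype was the only term in genotype fits, which left 2 residual degrees of freedom. Subsets and other CD3 cells were compared with the library as a block. DESeq2 1.42.0 was an alternative. The SE of a log2 change was taken as its size over the root of F. Levels are CPM of summed UMIs, computed here. Shares were compared by exact permutation tests (scipy 1.17.1). Doublets were scored with Scrublet in scanpy 1.11.5 and removed in an alternative only. The tool's own cutoff served in both Csf2-/- libraries, while the expected share of top scores was taken in the Csf2+/- libraries, where that cutoff marked nearly no cell. Members were clustered with Leiden (leidenalg 0.10.2, resolution 1, seed 1) and clusters named from markers. The gene fits were tested on simulated data.

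Named genes followed a rule. In genotype fits these were, among genes past 0.05 with at least 10 CPM in a genotype and no overlap of the libraries, the 10 largest in each direction, and the 5 of lowest p where fewer than 5 passed. In the others they were the 12 (CD4 against CD8) or 8 largest in each direction with at least 20 CPM and the same direction in 4 libraries. Up to 4 members of each of 30 lists by p and a fixed set were added. Genes named from the comparison without the other-lineage clusters were chosen after their values were seen. Results on 2 of the named genes are not reported here.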

Additional observations from a re-analysis of the deposited data

Results flagged for a closer look

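Igkc, an immunoglobulin light chain gene, had the only called difference between the genotype changes of CD4 and CD8 cells, a log2 interaction of -5.23 (edgeR adjusted p = 0.000513). Its level was 33.2, 71.5, 31.2 and 8021 CPM in CD8 cells and 23.8, 28.1, 1.34 and 100.35 CPM in CD4 cells. Of its 7711 UMIs in members, 94.97% lay in 1 cell of the Csf2-/- male library, and without predicted doublets the interaction was 0.33 (adjusted p = 0.998).

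The CD4 share of CD4 plus CD8 cells moved in opposite directions in the sexes. It was -8.99 percentage points in Csf2-/- against Csf2+/- females and 12.6 points in males, a gap of -21.6 points. The share of conventional T cells among all cells differed by 0.867 points in females and -0.126 points in males, a gap of 0.993 points. With 1 library per sex and genotype neither gap was tested.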

How the results depend on the processing

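The genotype counts depended on the processing. All members gave 10 called genes, and gave 22 with the DESeq2 test, 168 with no low-count filter, 6 without predicted doublets and 0 without the other-lineage clusters. CD4 cells gave 6, and 15, 161 and 13 with the DESeq2 test, no filter and no other-lineage clusters. CD8 cells gave 4, and 99 with no filter, 19 without predicted doublets, 2 under stricter quality limits and 22 without the other-lineage clusters. CD4 against CD8 gave 385, 180 with the DESeq2 test and 840 with no filter. The genotype by subset test gave 1, and 61, 12 and 3 with no filter, without predicted doublets and without the other-lineage clusters. Against Gzmc-positive cells edgeR called 3093 genes and the DESeq2 test 1945. The other-lineage exclusion was chosen after seeing the data, and the cause of these shifts was not tested.

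With 1 library left out, a lone sample is assumed to vary like the other group. The counts ranged from 27 to 70 in all members, 0 to 5 in CD4, 2 to 160 in CD8, 221 to 276 for CD4 against CD8, and 0 to 36 for the genotype by subset test. The CD4 share difference, 1.81 points, ranged from -8.43 points (without the Csf2-/- male library) to 12.04, the Foxp3 share difference from -7.79 to -2.15, and the T cell share difference from 0.0578 to 0.684. The CD4 against CD8 log2 differences of Ccr7 and Lef1, neither of them called, ranged from -0.008 to 0.351 and from -0.353 to 0.102. The difference in the share with Mki67 or Top2a, 5.72 points, was -0.782 after thinning to 2000 UMIs, where the members were chosen again and fewer cells met the rule. The Igkc interaction became 0.33 without predicted doublets.

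Of 373 values of 34 named genes between CD4 and CD8 cells, 369 kept direction and call. Of those named against Gzmc-positive cells 223 of 231 did, and against Trdc or Il23r cells 173 of 176. For the genotype in all members the count was 125 of 150, in CD4 cells 68 of 109 and in CD8 cells 78 of 104.

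Libraries with the same replicate number share sex and no animals. A replicate block by that number, that is by sex, gave 26 called genes in all members, 19 in CD4 and 13 in CD8 cells, with Ifng in CD4 cells (adjusted p = 0.0108) and Gzma (0.00158) and Ccr7 (0.0171) in CD8 cells then called. Precision is limited by 2 libraries per genotype and by 53 to 132 cells per subset.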
